A study of Mus musculus with 82 samples.

Results

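Sciatic nerves of mice labelled Mitf were compared with those of controls in a table of 22 libraries that also holds nerves labelled Ndrg1 and Mitf-Ndrg1. The comparison takes the 6 libraries labelled Mitf and the 6 labelled control, chosen by label alone, which are 12 of the 82 samples of a series on bulk RNA of mouse sciatic nerve. The labels of these 12 samples give the tissue and a 1-word genotype. They state no age, sex, strain, allele, Cre driver or injury, and they do not say whether Mitf was deleted, in which cells, or what else the controls carry. The same table holds 5 Ndrg1 and 5 Mitf-Ndrg1 libraries, and 3 other tables set a Cre label against a Mitf label: DhhCre against Mitf at P21 with 5 libraries each, Egr2Cre against Mitf at P12 with 3 each, and Egr2Cre Mitf against Mitf with 3 each and no age. The labels do not say that replicates come from separate mice, and the p-values therefore describe the spread among these libraries, which may in part be technical. Each of the 2 groups held libraries with Xist alone and libraries with Ddx3y alone (given below), which libraries of 1 mouse would not show. How many mice gave each group is not stated.

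MITF is a basic helix-loop-helix leucine zipper transcription factor that belongs with TFEB, TFE3 and TFEC to the MiT/TFE family. These factors bind short E-box sequences as dimers. MITF is best known for specifying melanocytes, which like Schwann cells come from the neural crest, and for roles in mast cells and osteoclasts, while TFEB and TFE3 are known for driving genes of lysosomes and autophagy. NDRG1 is a cytoplasmic protein that is abundant in Schwann cells, and its loss causes a demyelinating neuropathy.

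Totals ran from 21638193 to 29373573 estimated counts in the controls and from 22201227 to 27303835 in the Mitf libraries. The labelled tissue was checked against its markers: 10 Schwann cell markers summed to between 154303 and 183708 CPM (estimated counts scaled to a common library size) in the controls and between 144408 and 187650 in the Mitf libraries. The 18 macrophage markers summed to 646 to 848 CPM and 653 to 823 CPM. Skeletal muscle RNA varied widely between libraries. The 13 muscle markers summed to 38.0 to 1067 CPM (median 208) in the controls and 26.3 to 33673 CPM (median 1254) in the Mitf libraries. Mitf replicate 2 had the highest sum. Mitf replicates 1, 3 and 4 (1207, 2404 and 1301 CPM) were also above the highest control, and Mitf replicates 5 and 6 (26.3 and 633 CPM) were not. Xist and the Y-linked Ddx3y were both at or above 1 CPM in 1 control and 3 Mitf libraries, Ddx3y alone in 4 controls and 1 Mitf library, and Xist alone in 1 control and 2 Mitf libraries.

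Mitf itself, on mm10 at chr6:97807052-98021349 on the plus strand, was measured at 15.2, 17.3 and 21.6 CPM (lowest, median and highest) in the 6 controls and at 10.5, 11.6 and 14.7 CPM in the 6 Mitf libraries. The groups did not overlap. The means were 18.0 ± 2.19 and 12.2 ± 1.66 CPM (SD, n = 6 each), a log2 change of -0.55 (SE 0.12, 95% interval -0.80 to -0.31), or 31.9% less. That difference did not pass edgeR's test over all genes (adjusted p = 0.236), and DESeq2 called it (adjusted p = 0.0242). Mitf RNA was thus present in every library with the Mitf label, at 220 estimated counts or more. A gene-level count includes transcripts that lack an exon, so it does not measure functional Mitf. In bulk nerve, fewer cells of a type and less RNA per cell cannot be told apart.

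Of 15910 genes tested, 1 passed the edgeR test (adjusted p under 0.05), which is 0.00629% of them, and it was lower in the Mitf libraries. That gene was Alox5, which encodes 5-lipoxygenase, the enzyme that starts leukotriene synthesis from arachidonic acid and is best known from myeloid cells. Before adjustment, 994 genes (6.25%) had a p under 0.05, of which 576 were higher (3.62%) and 418 lower (2.63%). DESeq2 called 14 genes (0.078%), 4 higher and 10 lower. The edgeR fit of the 12 libraries alone called 3, all lower: Alox5, Clvs1 and Pop4.

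**Figure D1:**
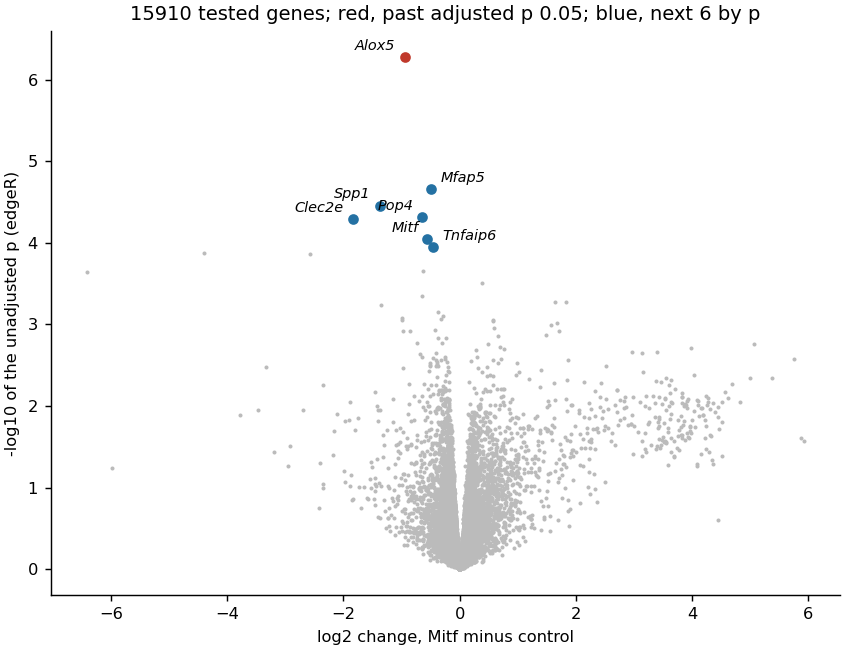
Each point is 1 of the 15910 tested genes, with its log2 change (Mitf minus control) on the x axis and the -log10 of its unadjusted edgeR p on the y axis. Alox5 (red) is the one gene past adjusted p 0.05, and the next 6 by p (blue) are all lower in the Mitf libraries.

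The Alox5 level was 6.93, 9.03 and 11.7 CPM (lowest, median and highest) in the controls and 3.78, 4.52 and 5.81 CPM in the Mitf libraries. Every Mitf library was below every control. The means of 9.11 ± 1.53 and 4.73 ± 0.732 CPM (SD, n = 6 each) gave a log2 change of -0.95 (SE 0.14, 95% interval -1.23 to -0.66), a fall of 48.1%, with an edgeR adjusted p of 0.00832. These levels rest on 155 to 281 estimated counts per control library and 92 to 145 per Mitf library. Alox5 lies at chr6:116410077-116461178 on the minus strand (GENCODE vM21, mm10), on the same chromosome as Mitf and 18.6 megabases from it. It passed the edgeR test in all 12 fits that each left out 1 of the 12 libraries (adjusted p 0.00339 to 0.0437), Mitf replicate 2 included (-0.98). With the summed level of 4 Y-linked genes as a covariate its change was -0.85 (edgeR adjusted p = 0.0168), and -0.84 (0.0485) in the 12 libraries alone. The macrophage marker sums given above covered nearly the same range in both groups. Whether myeloid cell content has a part in the Alox5 difference was not tested.

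The fit of the 12 libraries alone gave Alox5 a log2 change of -0.93 (edgeR adjusted p = 0.0321). With the muscle marker sum as a covariate in that fit, the change was -0.96 and the adjusted edgeR p 0.0881. In the smaller fits that also dropped 1 of the 12 libraries, the Alox5 change ran from -0.999 to -0.844, and the edgeR adjusted p stayed under 0.05 without control replicate 4 (0.0225) and without Mitf replicate 2 (0.0244) only. For the other 10 libraries left out it was 0.0519 to 0.124.

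A list of 16 genes of leukotriene and prostaglandin synthesis, Alox5 included, was made after the Alox5 result was known. Of its 12 tested genes only Alox5 passed, by edgeR and by DESeq2, and the median log2 change of the 12 was 0.03 against -0.01 over all genes. Alox5ap, the membrane protein that presents arachidonic acid to 5-lipoxygenase, stood at 7.35, 8.40 and 11.4 CPM in controls and 6.98, 7.98 and 10.6 CPM in Mitf libraries, with a log2 change of -0.11 (95% interval -0.37 to 0.16). Lta4h, which makes leukotriene B4, had a log2 change of -0.19 (SE 0.08, edgeR adjusted p = 0.697). Ltc4s, which makes leukotriene C4, had -0.23 (SE 0.21). Whether the change of Alox5 differs from those of its pathway partners was not tested.

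The 250 bases before the RefSeq start of Alox5 (GRCm38.p6, chr6:116461179-116461428, minus strand) are shown because Alox5 is the called gene, and those before the first of the RefSeq starts of Spp1 (chr5:104434861-104435110, plus strand) because Spp1 had the biggest change among the leading genes of higher level. Those of Hebp1 (chr6:135168216-135168465, minus strand), a heme-binding protein gene with a log2 change of 0.57 (SE 0.15, edgeR adjusted p = 0.619), are shown for comparison because they hold the E-box form CACGTG, printed in capitals. E-box forms other than those named below were not searched or marked.
Alox5: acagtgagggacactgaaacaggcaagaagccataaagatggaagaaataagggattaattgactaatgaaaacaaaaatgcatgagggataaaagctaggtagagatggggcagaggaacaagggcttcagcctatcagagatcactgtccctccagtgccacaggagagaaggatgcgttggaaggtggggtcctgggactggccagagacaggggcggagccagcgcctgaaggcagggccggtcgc
Spp1: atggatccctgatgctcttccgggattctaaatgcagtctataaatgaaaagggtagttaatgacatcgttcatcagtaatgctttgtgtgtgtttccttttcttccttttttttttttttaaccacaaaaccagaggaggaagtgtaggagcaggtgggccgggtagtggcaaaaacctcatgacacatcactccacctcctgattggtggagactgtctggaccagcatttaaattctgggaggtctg
Hebp1: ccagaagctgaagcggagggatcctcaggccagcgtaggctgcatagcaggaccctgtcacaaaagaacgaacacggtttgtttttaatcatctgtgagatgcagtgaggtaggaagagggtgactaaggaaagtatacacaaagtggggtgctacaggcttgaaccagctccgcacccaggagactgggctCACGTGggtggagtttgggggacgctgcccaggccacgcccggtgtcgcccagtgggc
Motifs that MITF and its relatives are known to bind were searched on both strands in windows of 300 bases, 250 before to 50 after the start. They were CACGTG, the longer form TCACGTGA that contains it, the variant CATGTG, and the longer form TCATGTGA that contains the variant. None was found in the window of Alox5, in the windows at both starts of Spp1 or in those at 3 starts of Mitf. CACGTG was in 9.47% of the 13817 promoters of tested genes, in 9.26% of the 54 promoters of genes lower without overlap and in 21.7% of the 23 promoters of genes higher without overlap, several of which are alternative starts of 1 gene. CATGTG was in 8.82%, 3.7% and 13%, TCACGTGA in 1.7%, 1.85% and 0%, and TCATGTGA in 0.76%, 0% and 4.35% of the same sets. These are descriptions of letters in a window.

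Next by p after Alox5 came 6 genes, all lower in the Mitf libraries without overlap between the groups and none past the edgeR test; apart from Mitf they were chosen after their values were seen, except that Spp1 and Mfap5 also lead fixed lists. In all, the 6 Mitf and 6 control libraries did not overlap for 86 genes (0.541%), 29 higher (0.182%) and 57 lower (0.358%). Spp1, the secreted matrix and cytokine protein osteopontin, stood at 422, 464 and 792 CPM (lowest, median and highest) in controls and 61.6, 217 and 329 CPM in Mitf libraries. Its log2 change was -1.38 (SE 0.26, edgeR adjusted p = 0.162, DESeq2 adjusted p = 0.00129). Mfap5, a microfibril protein used here as a fibroblast marker, stood at 550, 590 and 666 CPM in controls and 350, 431 and 517 CPM in Mitf libraries. Its log2 change was -0.49 (SE 0.09, edgeR adjusted p = 0.162, DESeq2 adjusted p = 0.00101). Single libraries decided both calls in edgeR. Without Mitf replicate 5, the library with the lowest Spp1 and the highest Mfap5, both passed the edgeR test (log2 change -1.19, adjusted p = 0.00851 for Spp1 and -0.55, adjusted p = 0.0236 for Mfap5). Without Mitf replicate 6, Spp1 passed (-1.56, edgeR adjusted p = 0.0369), as did Ppp2r2c, a phosphatase regulatory subunit.

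Pop4, a subunit of ribonuclease P, stood at 19.2, 25.6 and 29.3 CPM in controls and 13.6, 16.3 and 16.9 CPM in Mitf libraries (log2 change -0.64, SE 0.13, edgeR adjusted p = 0.162, or 0.0384 in the fit of the 12 libraries alone, and DESeq2 adjusted p = 0.0128). Tnfaip6, a secreted hyaluronan-binding protein, stood at 16.1, 17.6 and 20.9 CPM and at 10.5, 12.5 and 15.5 CPM (log2 change -0.45, SE 0.10, edgeR adjusted p = 0.242, DESeq2 adjusted p = 0.0242). Clec2e, a C-type lectin-like gene, was measured at 10 to 28 counts per control and 2 to 7 per Mitf library (log2 change -1.84, SE 0.37, edgeR adjusted p = 0.162, DESeq2 adjusted p = 0.0242). It belongs to a family of similar genes among which reads could be shared, so its level is uncertain. Clvs1, a lipid-binding protein gene that was called only in fits of the 12 libraries alone or of 11 of them, stood at 32.6, 35.3 and 51.1 CPM in controls and 13.9, 18.3 and 24.3 CPM in Mitf libraries (log2 change -0.98, SE 0.26, edgeR adjusted p = 0.644, or 0.0321 in the smaller fit). The Ndrg1 libraries, which enter the larger fit, stood at 5.83 to 18.9 CPM for Clvs1.

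Among genes with higher values, Notch4, a Notch receptor of endothelial cells, led by p. It stood at 7.93, 8.88 and 10.6 CPM in controls and 11.3, 11.9 and 12.8 CPM in Mitf libraries, without overlap (log2 change 0.39, SE 0.09, edgeR adjusted p = 0.416, DESeq2 adjusted p = 0.0355). Of the 12 endothelial markers 10 had positive log2 changes with a median of 0.12, none past the test, and Tek, an endothelial receptor tyrosine kinase, had 0.21. Aqp1, a water channel, had a log2 change of 1.64 (SE 0.39, edgeR adjusted p = 0.567, DESeq2 adjusted p = 0.0242). It stood at 4.12, 5.71 and 11.4 CPM in controls and 5.33, 16.1 and 52.1 CPM in Mitf libraries, with overlap. The highest value was in Mitf replicate 2. Over 38 fits of this comparison the Aqp1 change ran from 1.10 to 1.92, and 1 fit called it.

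**Figure D2:**
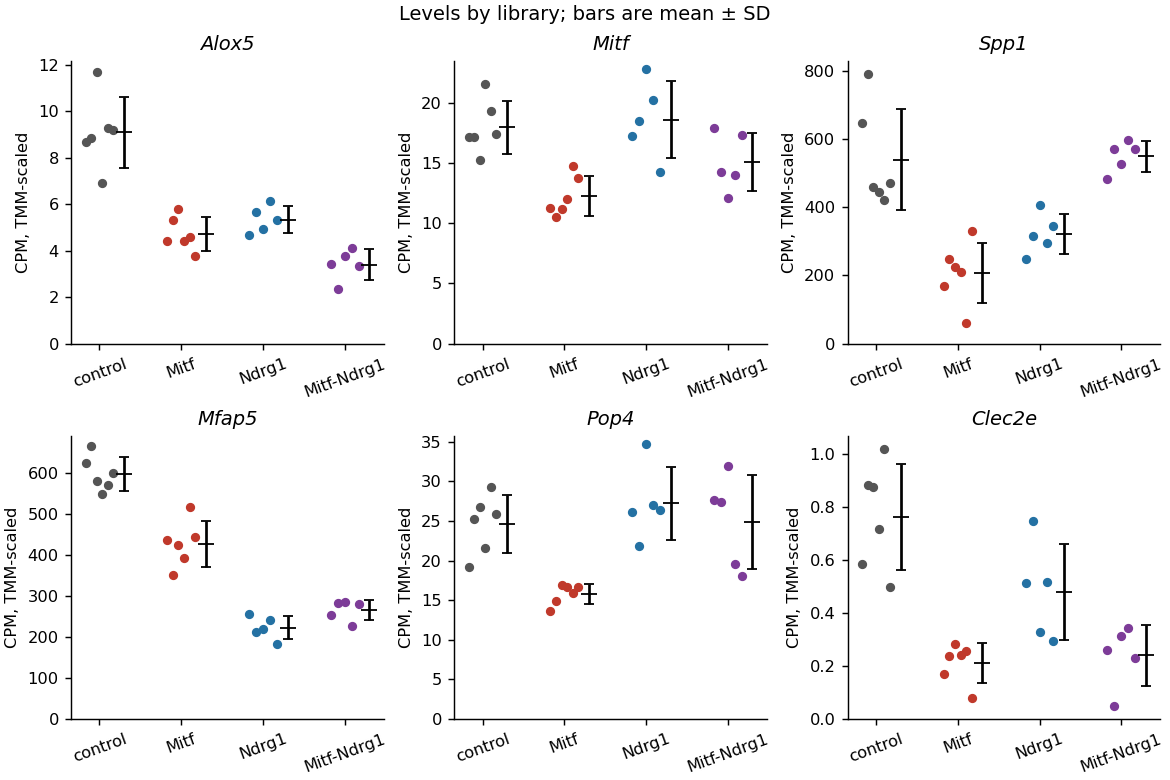
Points are the CPM of single libraries in the 4 groups of the table (6, 6, 5 and 5 libraries), with mean ± SD beside them, on axes that start at 0. For Alox5, Mitf, Spp1, Mfap5, Pop4 and Clec2e every Mitf library lies below every control, while in the Ndrg1 and Mitf-Ndrg1 groups Spp1 lies the other way round.

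The relatives of Mitf did not pass the test. Tfeb stood at 30.9 ± 2.92 CPM in controls and 32.1 ± 3.43 in Mitf libraries (SD, n = 6 each), a log2 change of 0.06 (95% interval -0.23 to 0.35). For Tfe3 the change was -0.03 (95% interval -0.21 to 0.14). Tfec was near absent, with 2 to 7 counts per control and 3 to 6 per Mitf library, so no fold is given. Flcn, whose product folliculin controls the entry of these factors into the nucleus, stood at 35.7 ± 2.93 and 41.1 ± 1.43 CPM (log2 change 0.20, SE 0.06, edgeR adjusted p = 0.666). Of the 16 genes of the family and the folliculin complex edgeR called none and DESeq2 only Mitf, and the median log2 change was -0.06, with the change of Rragd, a Rag GTPase, at 1.29 in all libraries and 0.16 without Mitf replicate 2.

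None of the 24 gene lists and 14 marker lists held a gene that edgeR called, while DESeq2 called 3 of their members, Mitf, Spp1 (extracellular matrix) and Mfap5 (fibroblasts). List medians are read against the median of -0.01 over all tested genes, of which 53.5% had a negative log2 change. Of the genes tested, 72.5% had a 95% interval within 1.5-fold of no change, and 85.1% had one within 2-fold. All 38 lysosome genes had an interval within 1.5-fold. Their median log2 change was -0.07, with 33 negative, and the smallest p belonged to Cd63, a tetraspanin of late endosomes (-0.15, SE 0.07), and Npc2, a cholesterol carrier (-0.14, SE 0.07). Lamp1, a lysosomal membrane protein, had -0.12 and Ctsd, cathepsin D, -0.12. The list medians were -0.04 for 17 subunits of the V-ATPase, the pump that acidifies lysosomes, and -0.03 for 26 tested autophagy genes. Atp6v1e1 was at -0.18 (SE 0.06) and Gabarapl1, an autophagosome protein, at -0.19 (SE 0.07), with no member past the test.

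The 24 myelin genes had a median of -0.03, or 0.03 without Mitf replicate 2. Mbp, myelin basic protein, had 0.02 (95% interval -0.22 to 0.26), and Pmp22, a membrane protein of compact myelin, -0.09 (-0.27 to 0.09). Of the 26 genes of cholesterol synthesis, a pathway that feeds myelin, 24 were negative, and their median was -0.09, or -0.03 without Mitf replicate 2. Idi1, an isomerase of the pathway, had -0.16 (SE 0.10). Sox10 and Egr2, transcription factors that drive Schwann cell identity and myelination, had -0.03 and -0.06, and the list of 18 Schwann cell transcription factors a median of 0.01. Ndrg1 stood at 1806, 1989 and 2052 CPM in controls and 1441, 1787 and 1998 CPM in Mitf libraries, with a log2 change of -0.15 (SE 0.08, edgeR adjusted p = 0.812). The 4 genes of its family had a median of -0.11, with 3 negative.

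Genes of the repair Schwann cell, the state that follows nerve injury, had a median of -0.10 over 29 tested members, or -0.03 without Mitf replicate 2, with 3 lower and 2 higher at an unadjusted p under 0.05. Lgals3, galectin-3, had -0.33 (SE 0.13), Tnfrsf12a, a cytokine receptor, -0.29 (SE 0.10), and Jun, the transcription factor that drives this state, -0.11 (SE 0.09). Artn, the growth factor artemin, had 1.24 (SE 0.49) at a level below 1 CPM, and Hmga1, a chromatin protein, 0.64 (SE 0.28). Medians of the other lists were -0.05 for 14 tested pigment cell genes, -0.07 for 31 cell cycle genes, -0.06 for 23 genes of the integrated stress and unfolded protein response, -0.01 for 23 interferon response genes, 0.03 for 9 genes of MHC class II, -0.09 for 20 immediate early and heat shock genes, -0.05 for 27 extracellular matrix genes, -0.08 for 20 glutathione and Nrf2 target genes, -0.06 for 15 glucocorticoid targets, -0.04 for 20 fatty acid synthesis genes, -0.05 for 20 genes of immature and non-myelinating Schwann cells and -0.01 for 22 genes of axon growth factor and neuregulin signalling. Of the pigment cell genes, Dct, Trpm1 and Slc24a5 were too low to test. Gpnmb, a melanosome and lysosome glycoprotein known as an MITF target in other cells, stood at 8.92 ± 1.44 and 8.36 ± 1.85 CPM (SD, n = 6 each; log2 change -0.09).

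Of the 24 gene lists, that of circadian clock genes had the median farthest from that of all genes, 0.21, with 14 of 18 tested members positive and none past the test. Tef, a PAR bZIP output factor of the clock, stood at 106, 111 and 148 CPM in controls and 132, 158 and 180 CPM in Mitf libraries, with overlap (log2 change 0.37, SE 0.13, edgeR adjusted p = 0.666). Per2, a repressor of the clock, had 0.63 (SE 0.27), Hlf, another PAR bZIP factor, 0.25 (SE 0.12) and Per3 0.39 (SE 0.19). In the fit of the 12 libraries alone with the replicate number as a block, edgeR called Per3. Arntl and Npas2, the activators whose RNA runs opposite to that of the Per genes over the day, had -0.53 (SE 0.32) and -0.68 (SE 0.35). The labels give no time of dissection, so its part in these values was not tested.

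The list medians of glycolysis and oxidative phosphorylation genes depended on Mitf replicate 2, the library with the most muscle RNA. The glycolysis and lactate transport list had a median of 0.18 over 23 genes and 0.00 without Mitf replicate 2, and the oxidative phosphorylation list a median of 0.13 with 20 of 21 positive, and -0.05 without that library. Slc16a3, a lactate exporter of glycolytic muscle, had a log2 change of 2.42 with and 0.47 without it, with 62.4 CPM in Mitf replicate 2 against 2.13 to 5.65 in the other 5 Mitf libraries. Skeletal muscle markers had a median of 3.78, 1.32 without it and -0.36 with the muscle sum as a covariate, and 6 of 12 tested had an unadjusted p under 0.05. Tnni2, a fast muscle troponin, went from 3.87 to 1.35 without that library.

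Other marker lists gave medians of -0.05 for macrophages, 0.10 for mast cells, -0.06 for fibroblasts, 0.11 for pericytes and smooth muscle, -0.02 for perineurial cells, -0.01 for adipocytes (-0.46 without Mitf replicate 2) and 0.42 for erythrocytes. The 5 tested sex-linked genes had a median of -0.83, with the Y-linked ones negative and Xist at 1.88 (SE 1.76), none past the test. Mast cell markers, several of them known MITF targets, summed to 19.6 to 90.8 CPM in controls and 31.4 to 79.1 in Mitf libraries. The lymphocyte list was low throughout, at 2.45 to 5.33 CPM and 4.61 to 9.03 CPM in sum, and its sum followed Klrb1c, a natural killer cell receptor gene. Klrb1c stood at 0, 1.40 and 2.54 CPM in controls and 2.53, 4.46 and 6.81 CPM in Mitf libraries (log2 change 1.86, SE 0.55, edgeR adjusted p = 0.666), and 4 of the 7 tested lymphocyte markers, Trac, Cd79b and Nkg7 among them, had negative values. Neutrophil and melanocyte lists had 1 and 2 members tested, and their sums stayed at or under 5.29 CPM.

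**Figure D3:**
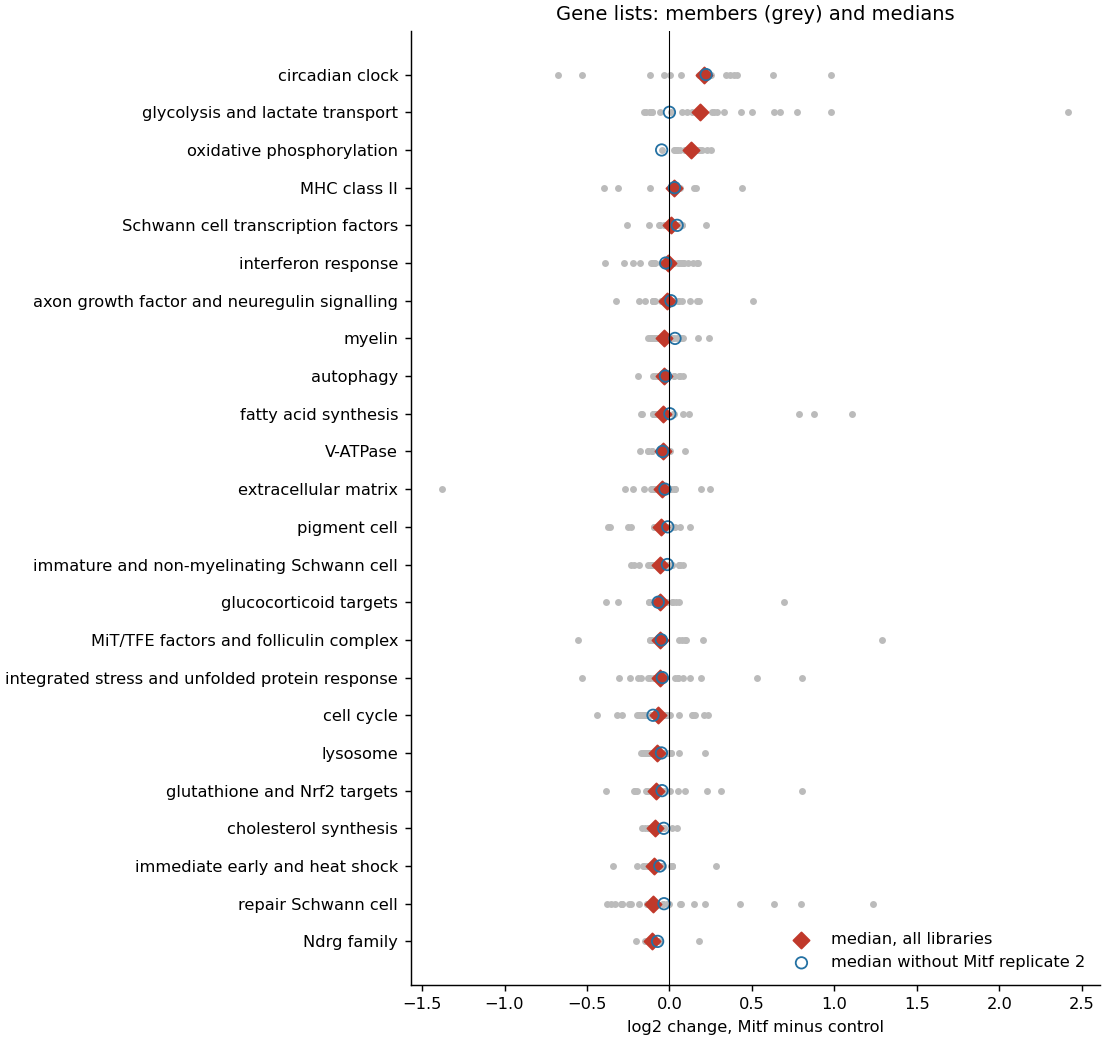
Each row is a gene list, with the log2 change of its tested members (grey), their median over all libraries (red diamonds) and their median without Mitf replicate 2 (blue rings). List medians lie between -0.11 and 0.21, and those of glycolysis and oxidative phosphorylation drop to about 0 without that library.

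The genes with the smallest p were often on chromosome 6, where Mitf lies. Of the 13856 tested genes placed by symbol in GENCODE vM21, 5.15% are on chromosome 6, while 7 of the 20 with the smallest p, 11 of the 50 and 15 of the 100 were there. Without Mitf, the 6 left among the 20 were 4 lower (Alox5, Mfap5, Clec2e and Dppa3) and 2 higher (Aqp1 and Mgp). They lie between 42.5 megabases before and 39.1 megabases after the start of Mitf. Klrb1c is also on this chromosome (chr6:128778485-128789215), close to Clec2e (chr6:129091998-129100913). In Mitf-Ndrg1 against Ndrg1, chromosome 6 held 1 of the 20, 7 of the 50 and 11 of the 100, and in DhhCre against Mitf at P21 it held 3, 8 and 13. The counts were 2, 3 and 8 for Egr2Cre against Mitf at P12 and 3, 4 and 10 for Egr2Cre Mitf against Mitf. Chromosome 5 held 8 of the 50, with 6.26% of tested genes there. Whether chromosomal position has a part in these differences, that of Alox5 included, was not tested.

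**Figure D4:**
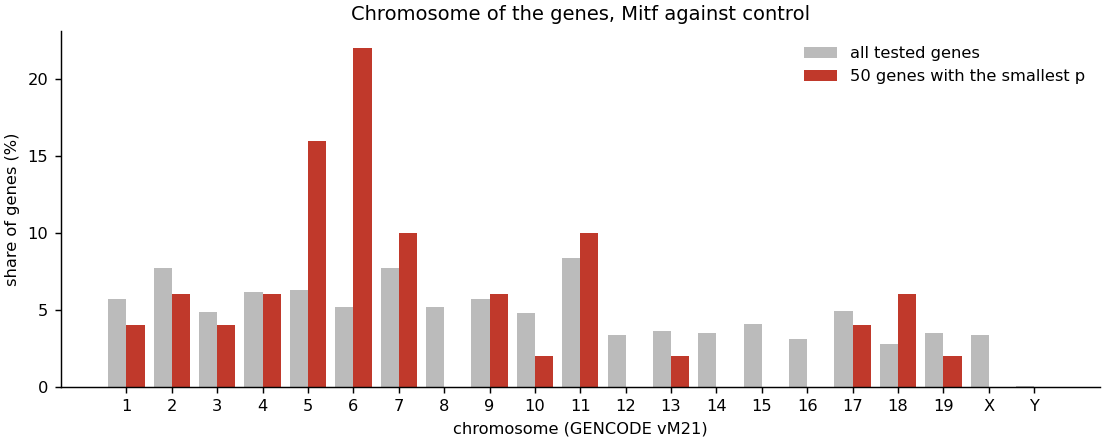
Bars give the share of genes on each chromosome, in percent, for all placed tested genes (grey) and for the 50 with the smallest p in Mitf against control (red). Chromosome 6 holds 22% of the 50 against 5.15% of all.

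The same Mitf label was set against its absence in nerves that carry the Ndrg1 label, in other libraries, which enter the same fit and share its estimate of the spread. Those nerves differ widely from the controls: Ndrg1 stood at 181 ± 11.4 CPM (SD, n = 5), and macrophage marker sums at 4441 to 5593 CPM. Alox5 was 4.69, 5.65, 4.92, 6.12 and 5.31 CPM in the 5 Ndrg1 libraries and 3.42, 2.36, 3.78, 4.12 and 3.35 CPM in the 5 Mitf-Ndrg1 libraries. Each Mitf-Ndrg1 library was below each Ndrg1 library, but the share of all genes without overlap was not counted for these groups of 5. Before adjustment, 2797 of 15910 genes had an edgeR p under 0.05 between them, so a lack of overlap may be common. The log2 change was -0.65 (SE 0.16), which passed the edgeR test over all genes (adjusted p = 0.0367, or 0.170 in the fit of these 10 libraries alone). In this comparison 234 genes were called (1.47%), 170 higher (1.07%) and 64 lower (0.402%), and the count ran from 58 without Ndrg1 replicate 5 to 545 without Mitf-Ndrg1 replicate 1. The interaction, which tests whether the 2 Mitf differences are equal, was 0.30 for Alox5 (95% interval -0.13 to 0.73, edgeR adjusted p = 0.564).

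The Spp1 difference had the opposite sign in the Ndrg1 nerves. It was 247, 314, 405, 296 and 344 CPM in the 5 Ndrg1 libraries and 482, 569, 528, 597 and 571 CPM in the 5 Mitf-Ndrg1 libraries, a log2 change of 0.77 (SE 0.28, edgeR adjusted p = 0.156, or 0.0299 in the fit of these libraries alone). All 5 Mitf-Ndrg1 libraries were above all 5 Ndrg1 libraries, again without a count of such genes among all. The interaction was 2.15 (SE 0.38, 95% interval 1.35 to 2.95) and passed the edgeR test (adjusted p = 0.0193), as did that of Mfap5, at 0.75 (SE 0.14, adjusted p = 0.0181). Over all genes 62 interactions were called (0.39%), 46 higher (0.289%) and 16 lower (0.101%), and with RLE scaling 47 higher and 30 lower. Muscle marker sums in the Mitf-Ndrg1 libraries ran from 18.8 to 17667 CPM and adipocyte sums from 182 to 1654 CPM, against 19.6 to 1190 and 190 to 352 CPM in the Ndrg1 libraries. Their part in the interactions was not tested. Mitf itself had a log2 change of -0.30 (SE 0.13, edgeR adjusted p = 0.228) between these groups, with an interaction of 0.26 that did not pass.

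In the tables with a Cre label the direction is set by label, Cre minus Mitf. Mitf RNA had a log2 change of -1.77 with DhhCre at P21 (SE 0.12, edgeR adjusted p = 2.95e-05), -0.73 with Egr2Cre at P12 (SE 0.15) and -0.45 in Egr2Cre Mitf against Mitf (SE 0.17), the last 2 not past the test. For Alox5 the same comparisons gave -0.41 (95% interval -0.85 to 0.04), -0.71 (-1.56 to 0.15) and -0.02 (-0.57 to 0.53), none past the test. Spp1 had -0.72 (SE 0.26), -0.79 (SE 0.22) and 0.28 (SE 0.19), also none past it, and Mfap5 lay within 0.1 of 0 in all 3. Of the 20 genes with the smallest p in Mitf against control, 9 of 20 kept their sign in Mitf-Ndrg1 against Ndrg1, and 9 of 13, 8 of 13 and 7 of 17 measured ones did in the 3 Cre tables, where 48.4%, 50.6% and 44.6% of all genes did (46.4% in Mitf-Ndrg1 against Ndrg1). The edgeR test called 2 genes with DhhCre, Mitf and the pseudogene Rpl36a-ps3, both lower (0.0143%), and 4 with the replicate number as a block, which adds Pcsk6 and Tdg; same-numbered libraries deviate together in that table. It called 2 with Egr2Cre at P12, Gm5292 and Rpl15-ps2, both higher (0.0139%), and 0 in Egr2Cre Mitf against Mitf. In the latter, 671 genes (4.33%) had an edgeR p under 0.05 before adjustment, and 1178 of 15482 did with the replicate number as a block. Same-numbered libraries deviate together in that table too, and the values of single genes above are from fits without the block. DESeq2 called 7 there (0.0272%).

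**Figure D5:**
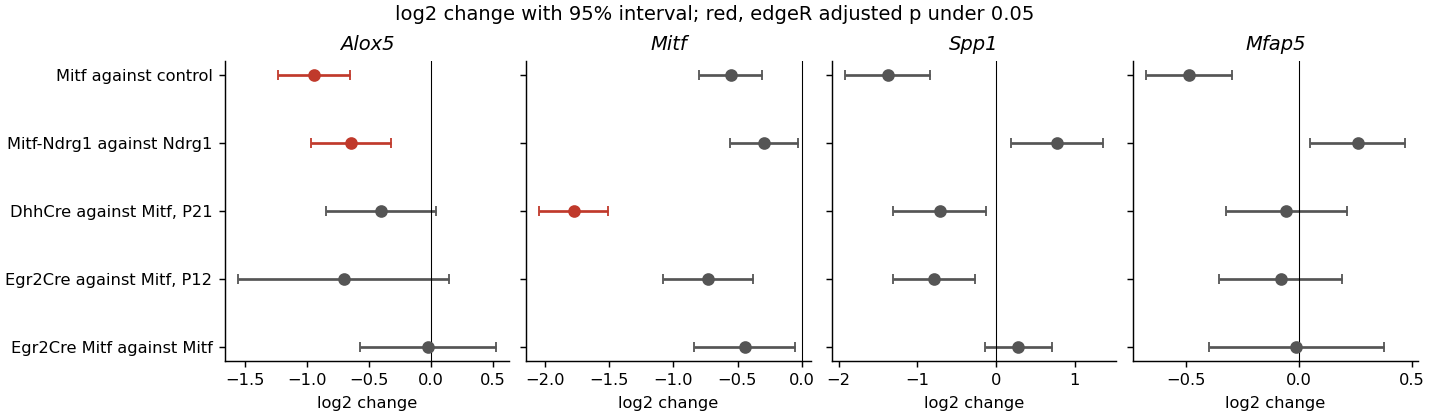
Points are log2 changes with 95% intervals for Alox5, Mitf, Spp1 and Mfap5 in 5 comparisons, red where the edgeR adjusted p is under 0.05. Alox5 lies below 0 in the first 2 rows with intervals that leave out 0, and Spp1 and Mfap5 change side between those rows.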

How the data were processed

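Bulk RNA libraries of mouse sciatic nerve were analysed, 12 in all, 6 labelled control and 6 labelled Mitf, with 10 further libraries of the same table and 22 of 3 other tables for comparison. The labels' protocols describe stranded mRNA libraries. The authors deposited estimated counts for each gene, from kallisto and the mm10 build, per the submitters' processing notes, and how transcripts were summed to genes is not stated there. Whole numbers made up 34.8% of the table, and the estimated counts were rounded to whole numbers. Columns not used numbered 0.

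Genes passing filterByExpr (minimum count 10; 15910 of 18003) were TMM-scaled and fitted with edgeR 4.0.16 in R 4.3.3 (robust quasi-likelihood F-test, two-sided) over all 22 libraries of the table, and called at a Benjamini-Hochberg adjusted p under 0.05 over all tested genes. The SE of a log2 change was derived from it and the F statistic. CPM uses TMM-scaled library sizes. DESeq2 1.42.0 was an alternative. In simulated counts, every set change that the test recovered had the right sign. The share recovered is not given here, and changes as small as that of Alox5 were not simulated. No 2 libraries of a group were alike within counting noise (lowest chi-square per degree of freedom 9.61). Replicate numbers were taken to pair the libraries of a table where every same-numbered pair's deviations correlated above 0.1. That held in the DhhCre and the Egr2Cre Mitf tables, and not for control and Mitf here. The labels state no pairing.

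Named genes were Mitf, Tfeb, Tfe3, Tfec and Ndrg1, up to 12 called genes per direction, the 4 members of smallest p of each of 24 gene lists and 14 marker lists, and other members where needed; other names were chosen after their values were seen. The comparison, lists and tests were chosen with earlier results of these data known. Positions are from GENCODE vM21 and promoters from RefSeq (GRCm38.p6), matched by symbol.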

Additional observations from a re-analysis of the deposited data

Results flagged for a closer look

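Among the values given for single genes and marker sums, 1 library stood apart from the rest of its group of 6 in 10 of 78 groups examined. Chance gives about 1 in 20 for independent groups not chosen by their values. Some of these genes were named for their p in the same libraries, and several groups share 1 library, so that rate is no yardstick here. Of the 10 groups, 5 concerned Mitf replicate 2 or its muscle RNA: the skeletal muscle marker sum of 33673 CPM, the pericyte and smooth muscle sum of 1142 CPM, Slc16a3 at 62.4 CPM, Aqp1 at 52.1 CPM and Itgb6, an integrin of epithelia, at 5.39 CPM. Among the controls, replicate 1 had the highest adipocyte sum (513 CPM), perineurial sum (1123 CPM) and Aqp1 (11.4 CPM). Clvs1 was 51.1 CPM in control replicate 5 and Ltc4s 3.87 CPM in control replicate 3.

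The Mitf differences without and with the Ndrg1 label differed by edgeR's test of the interaction for 2 of the 26 genes given with levels, Spp1 (2.15 on the log2 scale) and Mfap5 (0.75). DESeq2 called these and Flcn (-0.31), Tef (-0.80), Tnfaip6 (0.53) and Malat1 (-1.04), 6 in all, with edgeR log2 values in parentheses. Over all genes edgeR called 62 of 15910 interactions (0.39%) and DESeq2 414 of 18001. Several of the 26 genes were named for a small p in Mitf against control. That difference is part of the interaction, so their counts cannot be set against those of all genes.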

How the results depend on the processing

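For Mitf against control, the count of called genes was 1 under RLE scaling, without the low-count filter, with the replicate number as a block, and with sex, muscle or adipocyte covariates. It was 14 by DESeq2, 3 in a fit of the compared groups alone, and, in alternatives chosen after seeing the data, 6 with that fit and a replicate block, 39 with it and DESeq2, 3 with it and a sex covariate, 3 with it and an adipocyte covariate, and 1 with it and a muscle covariate, which was Clvs1 and not Alox5. Mitf was among the 3 called in the compared groups alone with a sex covariate. Leaving out 1 library gave 1 to 3, with 3 without Mitf replicate 5 or 6, and 0 to 3 in the compared groups alone. Same-numbered control and Mitf libraries correlated from 0.014 to 0.192, 2 of 6 best with their own number.

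Mitf-Ndrg1 against Ndrg1 had 768 calls by DESeq2, 31 in its groups alone and 58 (without Ndrg1 replicate 5) to 545 (without Mitf-Ndrg1 replicate 1) with 1 library left out. The interaction had 414 by DESeq2 and 20 (without Ndrg1 replicate 5 or Mitf-Ndrg1 replicate 3) to 252 (without Mitf-Ndrg1 replicate 1). DhhCre had 4 with the replicate block, 12 by DESeq2 and 2 to 3 with 1 library left out. Egr2Cre at P12 had 4 without the filter, 0 with the replicate block, 15 by DESeq2 and 0 to 2 with 1 left out, and Egr2Cre Mitf had 7 by DESeq2 and 0 with the replicate block. Beyond fewer samples or genes, the cause was not tested. No log2 change of a called value turned its sign. Of 6044 values for 169 genes, 5925 kept their direction and call. A value that was not called in the main fit counts as kept if it stayed uncalled, so this count says little about called genes. Alox5 was called in 27 of 38 fits of Mitf against control.

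Limits: genes below about 1 CPM have wide intervals, counts are estimates shared among similar transcripts, and the age and alleles of these mice are not stated in the labels.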
